A study of Mus musculus with 12 samples.

Results

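The genes described here are the protein-coding genes of the mouse major histocompatibility complex, whose symbols start with H2-, together with 12 partners that make, cut, load or switch on antigen presentation molecules. They were measured in quadriceps muscle by messenger RNA sequencing. The count table listed 43 symbols that start with H2-, of which 34 were protein-coding. B2m, Cd74, Tap1, Tap2, Tapbp, Ciita, Nlrc5, Psmb8, Psmb9, Psmb10, Psme1 and Psme2 were added by name, which gave 46 genes of 43346 listed. By role they fell into 25 class I genes (24 heavy chains and the light chain B2m), 11 class II genes, 9 class I processing and loading genes, and H2-Ke6, a gene named for its position inside the complex that encodes no presentation molecule.

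The mice were C57BL/6, with 4 libraries in each of 3 groups and 12 in all. The young group was aged 6 months, and no gavage is stated for it. Old vehicle mice were 24 months old and had been gavaged from month 20, for 3 days in a row every 2 weeks, with a vehicle made of Phosal 50 (60%), polyethylene glycol (30%) and ethanol (10%). Old D+Q mice were also 24 months old and had received dasatinib, a tyrosine kinase inhibitor, at 5 mg/kg and quercetin, a plant flavonoid, at 50 mg/kg on the same schedule, a pairing the labels call senolytic. Age and gavage therefore differed together between young and old vehicle and cannot be told apart. Whether every library comes from its own mouse is not stated, so the p-values cover the spread among libraries, which may be technical.

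Class I molecules display peptides from inside the cell to CD8 T cells, and nearly every cell with a nucleus makes some. The peptides are cut by the proteasome, pumped into the endoplasmic reticulum by the Tap1 and Tap2 transporter and loaded on a heavy chain paired with beta-2 microglobulin, the product of B2m. Class II molecules display peptides from engulfed material to CD4 T cells and are made mainly by dendritic cells, macrophages and B cells, with the invariant chain Cd74 guarding the groove on the way. Ciita is the master coactivator of class II genes, and Nlrc5 is its counterpart for class I. Both are recruited to a shared promoter module, the S, X and Y boxes, and interferon gamma raises both sets. Resting muscle fibres are known to carry little class I and no class II protein, so in whole muscle these transcripts come from a mixture of cells. In such bulk samples fewer cells of a type and less RNA per cell cannot be told apart.

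Libraries held 26715140 to 49792488 reads, so that 3 reads corresponded to 0.0561 to 0.106 CPM, reads scaled to a common library size with TMM factors. All 7 skeletal muscle fibre markers had reads in every group, with a summed level of 78760 to 140816 CPM per library. Young replicates 3 and 4 lay at the low end of the first principal component of all tested genes, which held 42.9% of the variance, and D+Q replicate 4 had a summed level of 21.4 CPM over 5 neutrophil markers, against 0.425 to 1.69 CPM in the other 11 libraries. The 4 leukocyte markers summed to between 7.23 and 14.0 CPM (young), 11.7 and 18.2 CPM (old vehicle) and 12.6 and 15.2 CPM (D+Q). The 7 B cell markers summed to at most 3.53 CPM, and 10 T and NK cell markers to at most 1.93 CPM, in any library.

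Promoter windows from RefSeq (build GRCm38.p6, 250 bases before to 50 after the annotated start) were found for 39 of the 46 genes. They are shown for the main class I heavy chains and their light chain, for the heavy chain H2-M9, for a class II alpha and a class II beta chain, and for Psmb9, because these genes carry the comparisons that follow. Each is printed 5′ to 3′ on the strand of its gene. Capitals mark matches, on either strand, to GGGNNTTCC (the kappaB element of enhancer A), TGACG (the core of the X2 box), GATTGG (the Y box, CCAATC on the other strand) and to the core of the interferon-stimulated response element (GAAA, any 2 bases, GAAA). The windows lie at chr17:34000298-34000597 on the minus strand (H2-K1), chr17:35262844-35263143 on the plus strand (H2-D1), chr2:122147437-122147736 on the plus strand (B2m), chr17:36642614-36642913 on the minus strand (H2-M9), chr17:34287774-34288073 on the minus strand (H2-Aa), chr17:34305617-34305916 on the plus strand (H2-Eb1) and chr17:34187281-34187580 on the minus strand (Psmb9).
H2-K1: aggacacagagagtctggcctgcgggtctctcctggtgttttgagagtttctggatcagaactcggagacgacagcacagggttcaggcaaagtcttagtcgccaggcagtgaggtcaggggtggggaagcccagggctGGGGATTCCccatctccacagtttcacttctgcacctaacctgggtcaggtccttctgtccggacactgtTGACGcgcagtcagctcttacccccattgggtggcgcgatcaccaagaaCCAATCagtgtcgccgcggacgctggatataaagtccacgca
H2-D1: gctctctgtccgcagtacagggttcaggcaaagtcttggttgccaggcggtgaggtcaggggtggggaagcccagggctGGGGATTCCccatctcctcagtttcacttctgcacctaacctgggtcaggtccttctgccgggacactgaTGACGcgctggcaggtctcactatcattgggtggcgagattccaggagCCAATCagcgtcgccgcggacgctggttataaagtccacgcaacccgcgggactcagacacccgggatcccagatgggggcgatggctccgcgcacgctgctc
B2m: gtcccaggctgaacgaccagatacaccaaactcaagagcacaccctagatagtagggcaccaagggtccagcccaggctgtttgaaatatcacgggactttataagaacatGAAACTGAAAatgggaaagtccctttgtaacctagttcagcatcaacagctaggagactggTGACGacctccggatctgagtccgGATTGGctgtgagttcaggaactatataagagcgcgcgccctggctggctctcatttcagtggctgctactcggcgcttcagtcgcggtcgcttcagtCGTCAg
H2-M9: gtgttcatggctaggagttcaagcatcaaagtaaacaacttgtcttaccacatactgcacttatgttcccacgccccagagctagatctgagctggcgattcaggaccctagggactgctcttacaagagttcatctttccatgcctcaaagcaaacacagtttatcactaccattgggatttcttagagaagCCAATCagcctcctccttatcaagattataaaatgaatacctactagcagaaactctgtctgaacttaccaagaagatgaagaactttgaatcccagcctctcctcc
H2-Aa: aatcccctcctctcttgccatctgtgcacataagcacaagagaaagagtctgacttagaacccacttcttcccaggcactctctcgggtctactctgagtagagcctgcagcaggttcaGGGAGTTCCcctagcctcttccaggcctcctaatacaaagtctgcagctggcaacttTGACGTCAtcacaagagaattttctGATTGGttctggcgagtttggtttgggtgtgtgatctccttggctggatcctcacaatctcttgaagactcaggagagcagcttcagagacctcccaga
H2-Eb1: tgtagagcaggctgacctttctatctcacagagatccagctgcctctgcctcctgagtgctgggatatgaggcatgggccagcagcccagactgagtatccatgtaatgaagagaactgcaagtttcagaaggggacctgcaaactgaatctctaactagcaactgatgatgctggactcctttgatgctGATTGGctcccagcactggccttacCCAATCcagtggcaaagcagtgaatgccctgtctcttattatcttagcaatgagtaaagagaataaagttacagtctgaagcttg
Psmb9: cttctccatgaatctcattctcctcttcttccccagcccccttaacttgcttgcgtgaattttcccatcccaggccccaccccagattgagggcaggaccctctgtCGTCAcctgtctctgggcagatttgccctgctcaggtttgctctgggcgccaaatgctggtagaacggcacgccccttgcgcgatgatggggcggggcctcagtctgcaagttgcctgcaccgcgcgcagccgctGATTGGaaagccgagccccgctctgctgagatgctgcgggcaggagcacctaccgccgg
In H2-K1 and H2-D1 the kappaB match, the X2 core and a match to the Y box letters followed in the same order. The windows were 88.3% identical over 239 aligned bases. The marked Y box letters read CCAATC there, opposite in strand to the matches in B2m and H2-Aa. Between them and the X2 core both windows hold the unmarked letters attgg, which lack the leading g of the search. Which of these stretches acts as the Y box was not tested. B2m held an X2 core and a Y box, a second X2 core downstream of the start, and a response element match. It had no match to the kappaB letters searched. H2-M9 held only a match to the Y box letters, also as CCAATC. H2-Aa held a kappaB match, an X2 core that reads TGACGTCA and therefore matches on both strands, and a Y box. Of the letters searched, H2-Eb1 matched only the Y box, as a pair on opposite strands. The Psmb9 window held a match to the X2 core and a match to the Y box letters. It shared 275 bases with that of Tap1, since the genes are divergently transcribed from 1 stretch of DNA.

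Matches to the Y box letters, on either strand, were found in 17 of 23 class I windows and 7 of 8 class II windows. Of all 27025 gene windows of this length, 16.6% had one. These counts do not show which matches act as Y boxes. The X2 core was found in 12 of 23 class I windows and, among class II windows, only in that of H2-Aa, against 21.0% of all. The kappaB match was found in 6 class I windows and 2 class II windows (5.72% of all), and the response element in B2m, H2-T23, H2-T22 and Psme1 (3.49% of all). Members share sequence by descent, and these are matches to letters, not measured binding. The letters searched are strict, so sites with other letters go unmarked. A window without a match, such as that of H2-K1 or H2-D1 for the response element, may still hold such an element.

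Of the 46 genes, 31 had enough reads to be tested: 12 class I, 9 class II, 9 processing and loading genes and H2-Ke6. The other 15 were under the filter, from H2-Q1 with 114 reads over 12 libraries and H2-M11 with 24 down to H2-M10.1 and H2-M10.4 with 1 read each. H2-M10.2, H2-M10.3, H2-M10.5 and H2-M10.6, heavy chains known from vomeronasal neurons, had 0 reads in every library, which allows at most the 3-read level given above. Under the filter on the class II side were H2-Oa with 18 reads and H2-Eb2 with 9. The genes under the filter were not tested for a difference.

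Levels between genes were compared as reads per kilobase of gene length, scaled to the total reads of each library. The TMM factors used for CPM were not applied here, so group means of these levels and of CPM can differ in proportion. B2m stood highest, at 179 ± 26.5 (SD, n = 4, here and below) among young libraries, 184 ± 48.7 among old vehicle and 166 ± 16.9 among D+Q libraries. The classical heavy chains followed, H2-D1 with group means of 34.7 to 42.0 and H2-K1 with 29.2 to 35.5. Their SDs over libraries overlapped, yet within every library H2-D1 stood above H2-K1, an order that was not tested. Together they held 63.7% to 72.0% of all class I heavy chain reads per kilobase, depending on the library. Cd74 was the highest class II gene, at 18.7 ± 8.43 in young and 33.8 ± 4.72 in old vehicle, above the antigen-binding chains H2-Eb1 (8.65 ± 3.28 and 15.9 ± 2.46), H2-Aa (8.73 ± 2.55 and 13.8 ± 2.74) and H2-Ab1 (5.69 ± 1.63 and 8.64 ± 1.18). The peptide editors H2-DMa and H2-DMb1 and the editor inhibitor H2-Ob stood far lower, with young means of 0.998, 0.685 and 0.193. Ciita, the regulator, had the lowest level of the tested genes, 0.0554 ± 0.0374 in young.

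Class II genes had the largest positive median of the 3 classes between old vehicle and young muscle. Of the 9 tested, 8 had a positive log2 fold change, with a median of 0.60, where the median of all 16146 tested genes was -0.010 and 49.0% were positive. For 5 of them, Ciita, H2-Aa, H2-Ab1, H2-Eb1 and Cd74, the groups did not overlap and every old vehicle library was above every young one, while 3.97% of all tested genes were separated in that direction. None of the 9 passed edgeR's quasi-likelihood test after Benjamini-Hochberg adjustment over all genes, where 1.86% of genes were called. The same 5 had an unadjusted p under 0.05, as did 16.0% of all tested genes, 7.21% with a higher level.

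H2-Aa, the alpha chain of I-A, stood at 21.2, 17.8, 14.9 and 10.3 CPM in young replicates 1 to 4, at 31.04, 23.8, 23.3 and 23.3 CPM in old vehicle and at 24.6, 21.9, 27.6 and 15.3 CPM in D+Q. H2-Ab1, its beta chain partner, stood at 11.8, 10.4, 8.62 and 5.78 CPM in young, 15.7, 13.7, 12.8 and 13.5 CPM in old vehicle and 16.0, 11.3, 16.5 and 7.08 CPM in D+Q. In both genes the old vehicle libraries lay above all young ones, and D+Q replicate 4 lay among the young libraries. For H2-Ab1 D+Q replicate 2 lay among them too. The edgeR log2 fold change of old vehicle over young was 0.66 ± 0.22 SE for H2-Aa (adjusted p = 0.168) and 0.60 ± 0.26 SE for H2-Ab1 (adjusted p = 0.28).

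H2-Eb1, the beta chain of I-E, stood at 12.96, 14.2, 7.94 and 5.50 CPM in young, 21.4, 17.8, 17.4 and 17.4 CPM in old vehicle and 18.4, 16.0, 21.3 and 9.41 CPM in D+Q. Its alpha chain is a pseudogene in this strain, listed as H2-Ea-ps with 0 reads. Cd74, the invariant chain that fills the groove of every new class II molecule, stood at 37.8, 34.4, 19.3 and 12.8 CPM in young, 53.4, 43.8, 43.5 and 47.5 CPM in old vehicle and 51.9, 41.4, 58.5 and 22.8 CPM in D+Q. Both had the order of H2-Aa, with young replicates 3 and 4 lowest and D+Q replicate 4 apart from the other D+Q libraries. The fold change of old vehicle over young was 0.86 ± 0.29 SE for H2-Eb1 (edgeR adjusted p = 0.168) and 0.85 ± 0.33 SE for Cd74 (adjusted p = 0.236).

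Ciita had few reads. It stood at 0.373, 0.513, 0.248 and 0.0283 CPM in young, 16, 23, 7 and 1 reads, at 0.954, 0.695, 0.705 and 0.589 CPM in old vehicle and at 0.477, 0.591, 0.635 and 0.466 CPM in D+Q. All old vehicle libraries were above all young ones, and the D+Q libraries overlapped both groups. The log2 fold change of old vehicle over young was 1.29 ± 0.44 SE, 2.44-fold, and missed the threshold in edgeR (adjusted p = 0.178) and passed it in DESeq2 (adjusted p = 0.0417), which called 4.82% of all tested genes. Over all settings tried, the adjusted p of Ciita ran from 0.0417 to 0.467. Its coordinates overlap those of Dexi, a gene with 10310 reads against 275 for Ciita, and the strand setting of the counting is not given in the sources used here, so reads of the pair may be misassigned.

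Without young replicate 4 the class II median was 0.44, and leaving out young replicates 3 and 4 together, a choice made after the data were seen, gave 0.33. In that last fit 8 of 9 genes were positive and 1 had an unadjusted p under 0.05, in place of 5. The 4 leukocyte markers were also all positive between old vehicle and young, with a median of 0.59, and of 13 macrophage markers 9 were positive with a median of 0.31. All 5 tested dendritic cell markers were positive, with a median of 0.33 and none called. Summed levels of the 13 macrophage markers overlapped, at 121 to 181 CPM in young and 131 to 201 CPM in old vehicle. Those of the 9 dendritic cell markers listed also overlapped, at 13.8 to 19.4 CPM and 16.4 to 23.4 CPM. Young replicate 4 had the highest dendritic cell sum of the young libraries. One macrophage marker, Cd68, a lysosomal protein named here after its values were seen, was called (log2 fold change 0.86 ± 0.16 SE, edgeR adjusted p = 0.0176). The same list held 4 negative markers, down to -0.80. By edgeR, 5 positive markers, Cd68 included, and 1 negative marker had an unadjusted p under 0.05. Leaving out replicate 1, 3 or 4 of the old vehicle group ended the call of Cd68 (edgeR adjusted p = 0.0513, 0.0552 and 0.0549), as did the fit without young replicates 3 and 4 (adjusted p = 0.137). In all, 5 of 20 alternative settings ended it. No leukocyte, macrophage or dendritic cell marker was at 0 in all libraries of a group, and the part of these cells in the class II values was not tested.

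The accessory class II genes were less even. H2-DMb1, a chain of the peptide editor H2-DM, stood at 1.33, 1.16, 0.780 and 0.737 CPM in young, 1.496, 0.500, 1.22 and 0.589 CPM in old vehicle and 2.05, 1.32, 1.84 and 0.932 CPM in D+Q. H2-Ob, a chain of H2-O, which holds H2-DM back and is typical of B cells, stood at 0.769, 0.490, 0.603 and 0.510 CPM in young, 1.22, 0.630, 0.434 and 0.362 CPM in old vehicle and 0.167, 0.520, 0.588 and 0.399 CPM in D+Q. The groups overlapped for both in every comparison. For H2-DMa and H2-DMb2 the fold changes of old vehicle over young were 0.40 and 0.43, not past the threshold. H2-DMb1 and H2-DMb2 are near copies, with 22.7% of the 50-base stretches of H2-DMb1 also found in H2-DMb2, so how reads divide between these copies is uncertain.

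**Figure D1:**
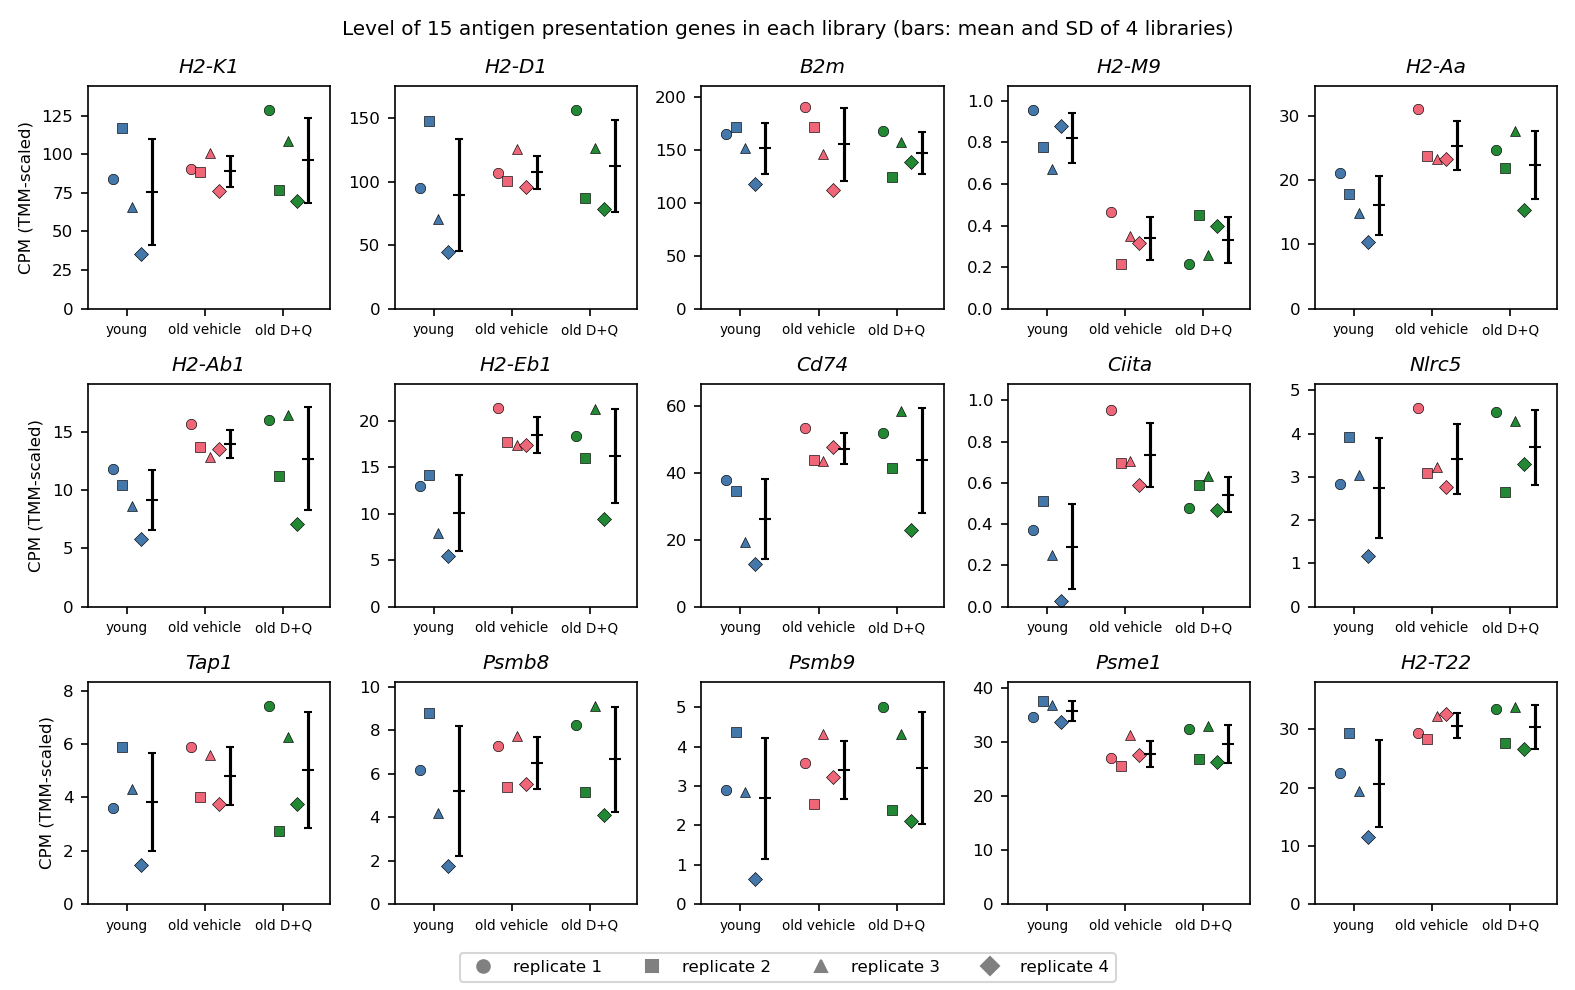
CPM (TMM-scaled, linear axis from 0) of 15 genes in each of the 12 libraries, by group, with point shapes for the replicates and bars for the mean and SD of 4 libraries. H2-M9 is lower in both old groups, the class II genes H2-Aa, H2-Ab1, H2-Eb1, Cd74 and Ciita have every old vehicle library above every young one, and young replicate 4 is the lowest point of most panels.

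Class I genes gave smaller and mixed values, and 1 of them was called. Of the 12 tested, 9 were positive between old vehicle and young with a median of 0.25, H2-M9 was called lower (0.65% of all tested genes were), and none was separated in the higher direction. H2-M9, a non-classical heavy chain of the family best known from vomeronasal sensory neurons, lies on chromosome 17 from 36639285 to 36642666 of mm10. It stood at 0.955, 0.780, 0.674 and 0.879 CPM in young, 41, 35, 19 and 31 reads. In old vehicle it stood at 0.467, 0.217, 0.352 and 0.317 CPM, and in D+Q at 0.215, 0.449, 0.259 and 0.399 CPM. Every young library was above every old one, treated or not, and the old groups overlapped each other.

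H2-M9 was 2.41-fold lower in old vehicle than in young (log2 fold change -1.27 ± 0.29 SE, edgeR adjusted p = 0.0423). Only 0.903% of its 50-base stretches occur in another gene, so sharing of reads with a copy is small. The call stood close to the threshold. It was lost when D+Q replicate 2 or 3 was omitted (adjusted p = 0.0519 and 0.0653), without young replicate 1, 3 or 4 (adjusted p = 0.121, 0.0751 and 0.103) and when old vehicle replicate 2, 3 or 4 was left out (adjusted p = 0.122, 0.109 and 0.143), while the log2 fold change stayed between -1.48 and -1.11 over the fits without 1 library. DESeq2 and limma-voom, which called 4.82% and 1.71% of all genes, called H2-M9 too (adjusted p = 0.00635 and 0.0361).

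H2-K1, the classical heavy chain K, stood at 84.2, 117, 65.6 and 35.5 CPM in young, 90.7, 88.7, 101 and 76.2 CPM in old vehicle and 129, 77.1, 109 and 69.8 CPM in D+Q. H2-D1, the classical heavy chain D, stood at 94.6, 148, 70.2 and 44.7 CPM in young, 106, 101, 126 and 95.9 CPM in old vehicle and 157, 87.4, 127 and 78.5 CPM in D+Q. B2m stood at 165, 172, 151 and 118 CPM in young, 191, 172, 146 and 112 CPM in old vehicle and 168, 124, 157 and 138 CPM in D+Q. All 3 groups overlapped for all 3 genes, and for the heavy chains the young group spanned the widest range, from replicate 4 to replicate 2. The fold changes of old vehicle over young were 0.24 ± 0.29, 0.26 ± 0.31 and 0.035 ± 0.17 SE for H2-K1, H2-D1 and B2m, none past the threshold (edgeR adjusted p = 0.675, 0.653 and 0.922).

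Among the non-classical heavy chains, H2-T22, a ligand of gamma delta T cells, stood at 22.4, 29.4, 19.4 and 11.5 CPM in young, 29.5, 28.4, 32.3 and 32.6 CPM in old vehicle and 33.5, 27.7, 33.9 and 26.7 CPM in D+Q. Young replicate 2 overlapped the old libraries and the other young libraries lay below them. The fold change of old vehicle over young was 0.57 ± 0.21 SE (edgeR adjusted p = 0.228), and without young replicate 2 it was 0.76 (adjusted p = 0.0379). H2-T22 shares 31.2% of its 50-base stretches with the pseudogene H2-T10, so its reads are uncertain. H2-Q7, the Qa-2 antigen, and its near copy H2-Q6 had 0.64 and 0.42, and 26.4% of the stretches of H2-Q7 are found in other genes. H2-Q10, secreted by the liver, had the widest spread, 0.964 to 12.2 CPM within young alone, and a fold change of -0.65 ± 0.62 SE. H2-Ke6, the gene outside both classes, had 0.54 ± 0.22 SE (adjusted p = 0.259), and 70.5% of its stretches are found in the overlapping transcript Gm20427.

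The class I median depended on single young libraries, which moved it in opposite directions. It was 0.029 when young replicate 4 was left out, 0.50 when replicate 2 was, and -0.12 without both young replicates 3 and 4, where 5 of 12 genes were positive. In the fit without young replicate 2, H2-Ke6 and H2-T22 were called higher beside H2-M9, while 6.26% of all genes were called. The summed level of the 7 endothelial markers was 337 CPM in young replicate 4 and 436 to 546 CPM in the other 11 libraries, and that of the fibre markers was lowest in the same library. Their part in these values was not tested.

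Processing and loading genes had 7 of 9 positive values between old vehicle and young, a median of 0.31 and none called. Tap1, a chain of the peptide transporter, stood at 3.59, 5.88, 4.33 and 1.47 CPM in young, 5.89, 4.02, 5.58 and 3.76 CPM in old vehicle and 7.42, 2.74, 6.26 and 3.75 CPM in D+Q. Nlrc5, the class I coactivator, stood at 2.84, 3.92, 3.05 and 1.16 CPM in young, 4.60, 3.08, 3.23 and 2.76 CPM in old vehicle and 4.51, 2.65, 4.28 and 3.31 CPM in D+Q. In both, young replicate 4 was the lowest of the 12 libraries and the other libraries of the 3 groups overlapped. Fold changes of old vehicle over young were 0.33 ± 0.38 SE for Tap1 and 0.32 ± 0.31 SE for Nlrc5. The other transporter chain Tap2 had 0.20, and tapasin, the loading bridge encoded by Tapbp, a gene that overlaps Zbtb22, had 0.041. Without young replicate 4 the class median was 0.014.

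Psme1 went the other way. It encodes the alpha subunit of PA28, a cap that opens the proteasome, and stood at 34.7, 37.5, 36.8 and 33.7 CPM in young, 26.96, 25.5, 31.2 and 27.5 CPM in old vehicle and 32.3, 26.9, 33.0 and 26.2 CPM in D+Q. Every old library, treated or not, lay below every young one, young replicates 3 and 4 included, while 5.39% of all tested genes were separated in that direction between old vehicle and young. It was 1.28-fold lower in old vehicle (log2 fold change -0.36 ± 0.11 SE) and missed the threshold in edgeR (adjusted p = 0.117), while DESeq2 called it (adjusted p = 0.0176). Over the fits without 1 library the fold change of Psme1 stayed between -0.42 and -0.32. Its gene overlaps Emc9. Psme2, which encodes the beta subunit of the same cap, had -0.037 ± 0.18 SE and overlapping groups.

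The immunoproteasome subunits Psmb8, Psmb9 and Psmb10 replace Psmb5, Psmb6 and Psmb7 in the catalytic core when interferon acts. Psmb8 stood at 6.15, 8.78, 4.18 and 1.76 CPM in young, 7.29, 5.39, 7.72 and 5.53 CPM in old vehicle and 8.26, 5.15, 9.10 and 4.10 CPM in D+Q. Psmb9 stood at 2.89, 4.37, 2.84 and 0.652 CPM in young, 3.59, 2.54, 4.31 and 3.22 CPM in old vehicle and 5.01, 2.39, 4.33 and 2.11 CPM in D+Q. All groups overlapped, with young replicate 4 lowest for both. Per length, the induced subunits reached only a few percent of their constitutive partners. Psmb8 was at 1.81% to 3.76% of Psmb5 in young, 1.58% to 3.74% in old vehicle and 2.01% to 3.33% in D+Q.

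Psmb9 was at 0.506% to 2.00% of Psmb6 in young, 1.12% to 1.93% in old vehicle and 1.06% to 1.64% in D+Q. Psmb10 was at 0.540% to 1.93% of Psmb7 in young, 1.19% to 2.32% in old vehicle and 0.763% to 2.85% in D+Q. Of 9 two-sided exact permutation tests on these log2 ratios, 3 ratios in 3 comparisons, none passed. The smallest p was 0.114, for Psmb10 over Psmb7 in old vehicle against young (difference 0.82, adjusted p = 0.771), where 4 libraries against 4 can reach 0.0286. The constitutive subunits Psmb5, Psmb6 and Psmb7 had log2 fold changes of 0.76, 0.46 and -0.19 between old vehicle and young, none called.

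**Figure D2:**
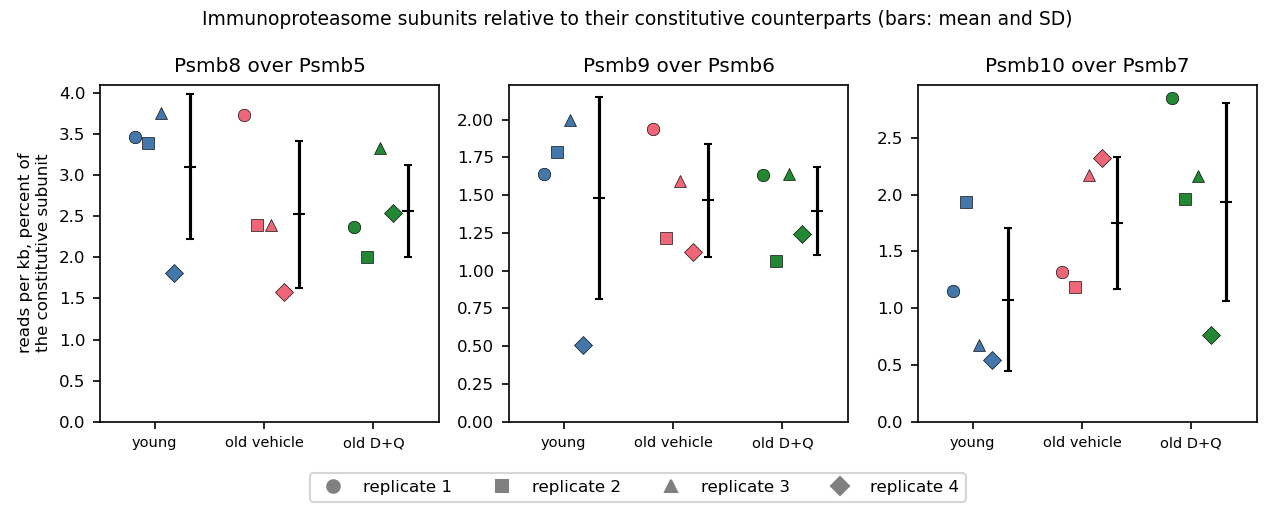
Reads per kilobase of the immunoproteasome subunits Psmb8, Psmb9 and Psmb10 as a percent of the constitutive subunits Psmb5, Psmb6 and Psmb7, per library, with bars for the mean and SD of 4 libraries. The 3 groups overlap in all panels, and young replicate 4 is the lowest point for Psmb9 and Psmb10.

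D+Q against old vehicle gave no call. None of the 31 tested genes passed edgeR (0 of all 16146 genes did, 0.0%), none had an unadjusted p under 0.05, against 2.16% of all tested genes, and none was separated between the groups, against 2.17%. DESeq2 (0.0743% of all genes called) and limma-voom (0.0%) also called none of them, and DESeq2 gave H2-DMb2 no adjusted p. The class medians were -0.18 for class II, 0.016 for class I and 0.067 for processing and loading genes, beside 0.010 over all tested genes, 53.0% of which were positive. The 3 genes ranked first by edgeR were H2-DMb1 (log2 fold change 0.69 ± 0.37 SE, approximate 95% interval -0.032 to 1.40), H2-Ob (-0.67 ± 0.42 SE, -1.49 to 0.14) and Ciita (-0.44 ± 0.41 SE, -1.25 to 0.36). Each of these intervals includes 0. Without old vehicle replicate 1 the fold change was -0.19 for H2-Ob and -0.29 for Ciita.

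The intervals show roughly what this comparison could leave undetected. They are approximate and somewhat narrower than the edgeR test implies, so larger differences may also be missed. For H2-Aa the approximate 95% interval of the log2 difference of D+Q from old vehicle ran from -0.61 to 0.25. For H2-Eb1 it ran from -0.75 to 0.37, for Cd74 from -0.74 to 0.53 and for H2-K1 from -0.46 to 0.68. B2m was bounded more closely, from -0.41 to 0.25, and Psme1 from -0.12 to 0.30. The negative class II median rested on D+Q replicate 4. Without that library it was 0.0032 and 5 of 9 genes were positive, in place of 2 of 9. That library is the one with the high neutrophil marker level, whose part in the class II values was not tested. Of the macrophage markers 1 of 13 was positive in this comparison, with a median of -0.12, and of 5 tested dendritic cell markers none was, with a median of -0.23. The summed macrophage markers did not go the same way, with medians of 140 CPM in old vehicle and 145 CPM in D+Q. The summed dendritic cell markers had medians of 18.4 and 18.3 CPM in the same order, and both sums overlapped between the groups. Macrophage markers with an unadjusted p under 0.05 numbered 2, both lower in D+Q. Cd68 had a log2 fold change of -0.64 ± 0.16 SE, between -0.74 and -0.55 over the fits without 1 library. It was not called by edgeR and lay at the threshold in DESeq2 (adjusted p = 0.04998). The part of these cells in the class II values was not tested. The class I median was -0.10 and the processing median -0.14 without D+Q replicate 1.

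**Figure D3:**
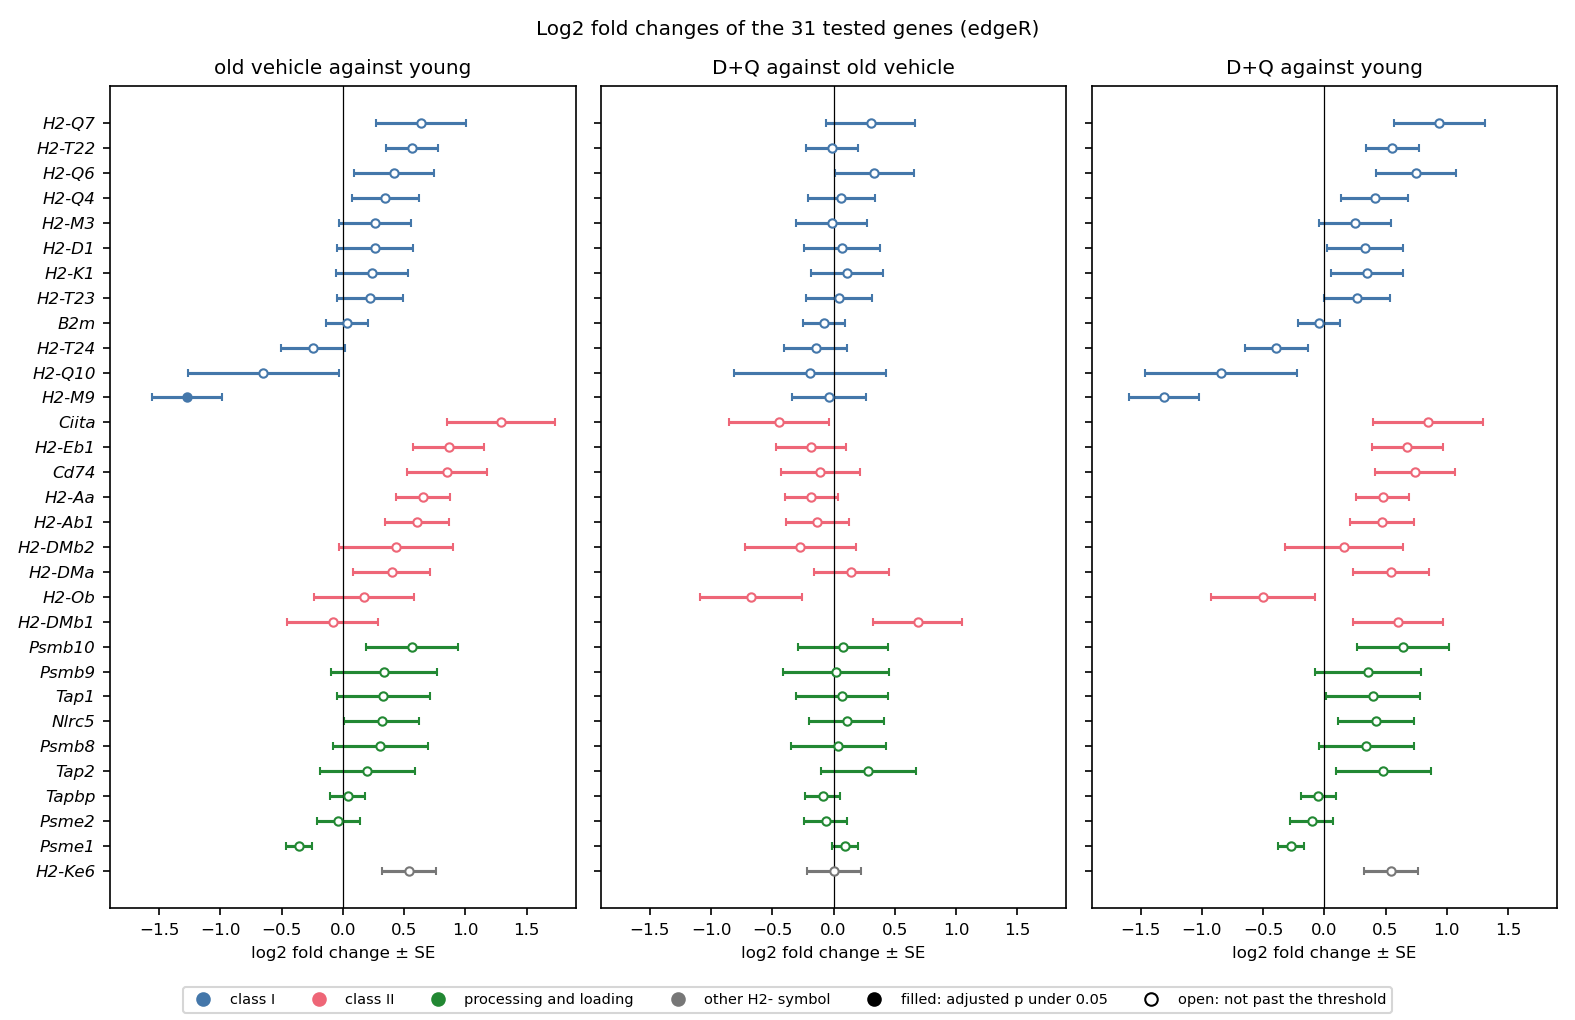
Log2 fold changes (points) with standard errors (bars) of the 31 tested genes in the 3 comparisons, from the edgeR fit, coloured by class, filled where the adjusted p is under 0.05. The only filled point is H2-M9 in old vehicle against young. Most class II genes lie right of 0 in the outer panels and near 0 or left of it in the middle panel.

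D+Q against young shares the young libraries with the first comparison, so its values are not independent of those above. None of the 31 genes was called, where 0.892% of all tested genes were, and 8 had an unadjusted p under 0.05, against 17.8% of all. H2-M9 was 2.48-fold lower (log2 fold change -1.31 ± 0.29 SE) and just missed the threshold in edgeR (adjusted p = 0.0558). It passed in DESeq2 (adjusted p = 0.0064, where 3.78% of all genes were called) and without young replicate 2 (adjusted p = 0.0314). Psme1 had -0.27 ± 0.11 SE with groups that did not overlap, and H2-M9 and Psme1 were the only members so separated, both lower, against 3.83% of all tested genes in that direction.

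Class II genes had a median of 0.54 in that comparison, 8 of 9 positive (49.7% of all tested genes were) and none separated. Without D+Q replicate 4 the median was 0.77. Cd74 had 0.74 ± 0.33 SE and H2-Eb1 0.68 ± 0.29 SE, neither past the threshold (edgeR adjusted p = 0.267 and 0.261). Class I genes had a median of 0.30, led by H2-Q7 at 0.94 ± 0.37 SE and H2-Q6 at 0.75 ± 0.32 SE (edgeR adjusted p = 0.243 and 0.264). Leaving out young replicate 4 took the class I median to 0.084, and leaving out young replicate 2 took it to 0.54. Processing and loading genes had a median of 0.36, and the same omissions gave 0.055 and 0.66.

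Much of the spread lay between libraries of 1 group. Young replicate 4 was the lowest of the 12 libraries for 22 of the 31 tested genes, while it was the lowest for 25.9% of all tested genes. D+Q replicate 1 was the highest library for 11 of the 31, old vehicle replicate 1 for 6, and young replicate 2 and D+Q replicate 3 for 5 each. The summed level of the 24 class I heavy chains was 117 CPM in young replicate 4 and 375 CPM in young replicate 2, and 233 to 413 CPM in D+Q, against 259 to 329 CPM in old vehicle. The summed class II chains lay between 24.3 and 50.6 CPM (young), 57.5 and 73.4 CPM (old vehicle) and 34.5 and 70.9 CPM (D+Q).

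**Figure D4:**
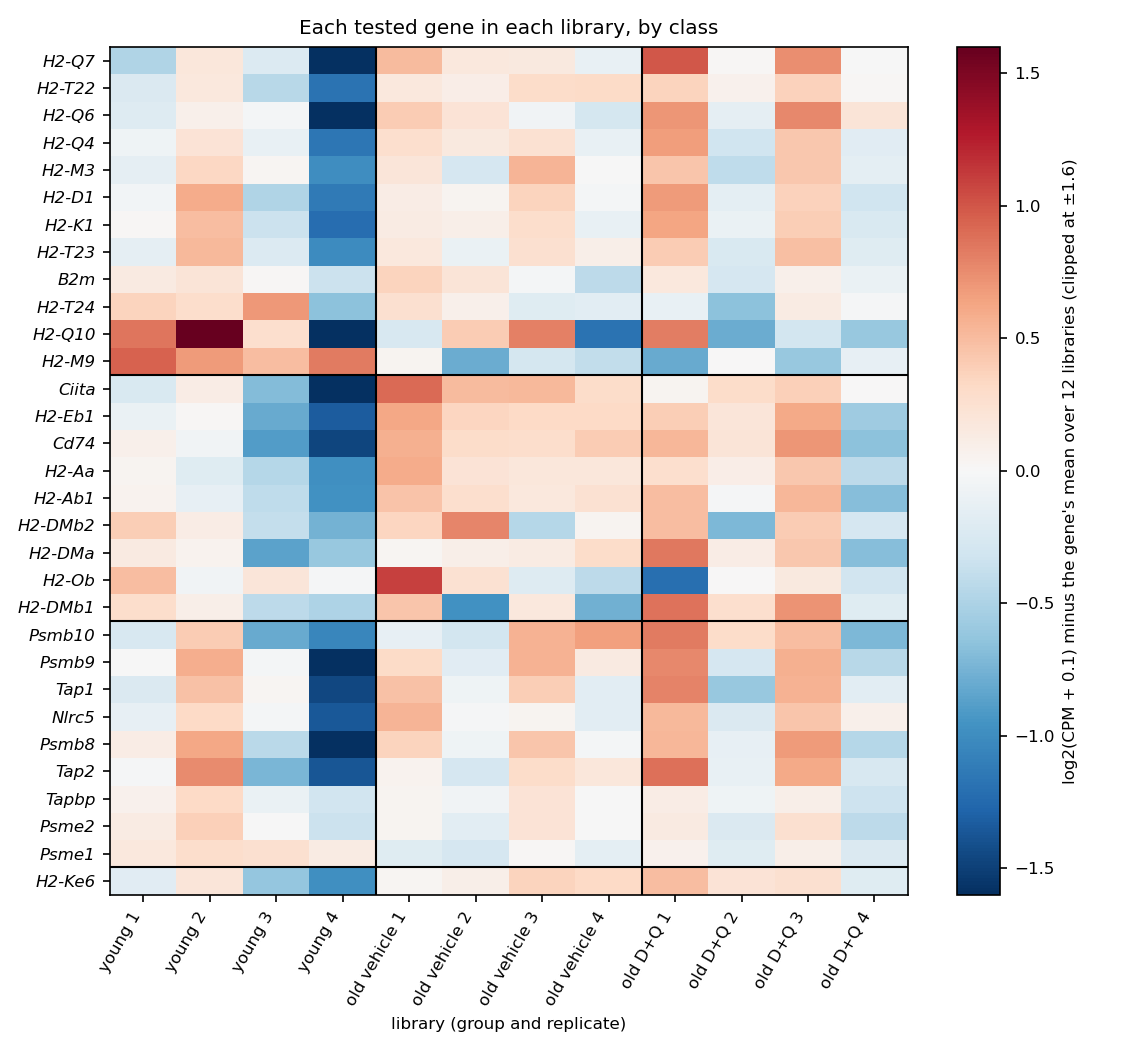
Log2(CPM + 0.1) of the 31 tested genes in the 12 libraries minus the mean of each gene, by class and group, clipped at ±1.6. Young replicate 4 is blue through most class I, class II and processing rows, D+Q replicates 1 and 3 are red through many, and D+Q replicate 4 is blue in most class II rows.

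Some pairs of genes varied together across the 12 libraries. For 8 chosen pairs, Pearson's r of log2 CPM was computed with a permutation p and Benjamini-Hochberg adjustment over the 8. Cd74 and H2-Ab1 had r = 0.97 and rho = 0.97 (adjusted p = 8.0e-05 for r, the smallest the permutations can give), and r was 0.98 without the libraries farthest from the median of Cd74, young replicates 3 and 4. With group means removed r was 0.96. Psmb9 and Tap1, which share a promoter stretch and overlap, had r = 0.94 and rho = 0.87 (adjusted p = 0.00024), and 0.85 without young replicate 4 and D+Q replicate 1. Overlapping genes can share reads if strand was not used in the counting.

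Nlrc5 and H2-K1 had r = 0.90 and rho = 0.74 (permutation adjusted p = 0.0021 and 0.02), 0.88 with group means removed and 0.80 without young replicate 4 and old vehicle replicate 1. Irf1, an interferon-induced factor that binds response elements, and H2-K1 had r = 0.89 and rho = 0.71 (adjusted p = 0.0021 and 0.0256), and r was 0.59 without young replicates 2 and 4. With group means removed r was 0.88 for that pair (permutation adjusted p = 0.0243), while rho was 0.64 and did not pass (adjusted p = 0.109). B2m and H2-K1 had r = 0.63 and rho = 0.67 (adjusted p = 0.0297 and 0.0274), and r = 0.48 without young replicate 4 and old vehicle replicate 4. Ciita and H2-Ab1 had r = 0.79 and rho = 0.67 (adjusted p = 0.004 and 0.0274), and 0.47 without young replicates 3 and 4. The relations of Irf1, B2m and Ciita thus rested in part on the libraries left out. With group means removed r was 0.71 for B2m and 0.65 for Ciita (permutation adjusted p = 0.0085 and 0.0243).

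The 2 pairs with cell type markers did not pass. Each used 1 marker, out of 13 listed for macrophages and 7 for B cells, so the values describe that gene and not the cell type. Adgre1, the macrophage marker F4/80, and H2-Ab1 had r = -0.048 and rho = -0.091 (permutation adjusted p = 0.882 and 0.782). Cd79b, a chain of the B cell receptor, and H2-Ab1 had r = 0.46 and rho = 0.48 (permutation adjusted p = 0.15 and 0.132). Without their 2 farthest libraries these were -0.45 and 0.26. Within a group there are only 4 libraries, so no value within 1 group is given, and the values with group means removed were 0.051 and 0.47.

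**Figure D5:**
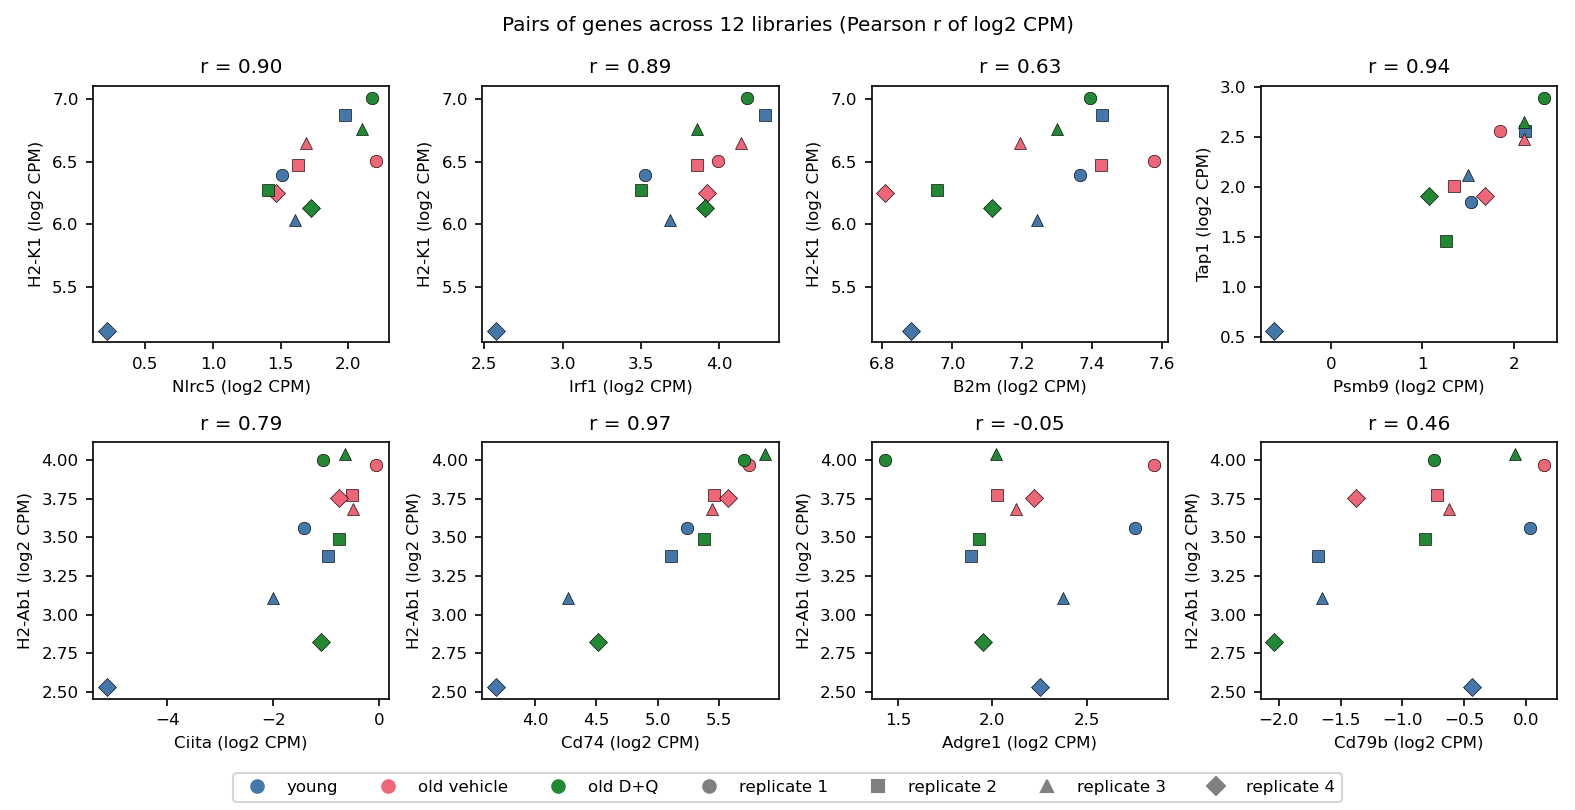
Log2 CPM of 8 pairs of genes in the 12 libraries, coloured by group with point shapes for the replicates, and Pearson's r above each panel. Cd74 with H2-Ab1 and Psmb9 with Tap1 lie closest to a line, Adgre1 with H2-Ab1 shows none, and young replicate 4 is the low corner of most panels.

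Among 20 regulators of these genes, Rfx5, a subunit of the factor that binds the X box in class I and class II promoters, was called higher in both old groups than in young, where 1.86% (old vehicle) and 0.892% (D+Q) of all tested genes were called in either direction. It stood at 9.25, 8.82, 8.58 and 6.89 CPM in young, 11.7, 14.5, 16.7 and 14.0 CPM in old vehicle and 15.7, 17.4, 15.7 and 16.4 CPM in D+Q. All old libraries were above all young ones. Rfx5 was 1.69-fold higher in old vehicle (log2 fold change 0.76 ± 0.13 SE, edgeR adjusted p = 0.0109) and 1.94-fold higher in D+Q (0.96 ± 0.13 SE, adjusted p = 0.00708). It kept both calls in all 12 fits without 1 library and lost them without young replicates 3 and 4 (adjusted p = 0.0986 and 0.0899). Irf1 had a log2 fold change of 0.34 ± 0.27 SE between old vehicle and young, which was not called. The median of the 20 between old vehicle and young was -0.064, with 7 positive, where 49.0% of all tested genes were.

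Genes induced by interferon gamma were positive between old vehicle and young in 18 of 21, where 49.0% of all tested genes were, with a median of 0.26. One was called, where 1.86% of all tested genes were: Cxcl10, a chemokine that attracts T cells. Over 4 libraries each, Cxcl10 had 28 reads (young), 360 (old vehicle) and 291 (D+Q). It stood at 0.0699, 0.156, 0.142 and 0.397 CPM in young, 1.25, 1.17, 2.17 and 3.60 CPM in old vehicle and 2.86, 1.89, 1.6 and 0.510 CPM in D+Q, so that every old library lay above every young one. The fold change was 3.42 ± 0.62 SE in old vehicle (edgeR adjusted p = 0.014) and 3.17 ± 0.62 SE in D+Q (adjusted p = 0.0351), both over young. Over the fits without 1 library, the first call of Cxcl10 was lost without young replicate 1 or 3 (edgeR adjusted p = 0.0526 and 0.0536). The second was lost without D+Q replicate 1, 2 or 3, old vehicle replicate 3, or young replicate 1 or 3 (adjusted p from 0.054 to 0.113). Over all 20 alternative settings the first call was lost in 4 and the second in 10.

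Between D+Q and old vehicle, 2 of the 21 interferon gamma genes were positive (53.0% of all tested genes were), with a median of -0.25 and none called. Between D+Q and young 11 of 21 were positive (49.7% of all), with a median of 0.0099. These comparisons share libraries, so their values are set side by side only. Of 33 other processing and presentation genes, such as the loading chaperones Calr and Canx, the trimming enzyme Erap1 and the class II proteases Ctss and Lgmn, 32 were tested and none was called in any comparison. Their medians were -0.00097 for old vehicle over young, -0.021 for D+Q over old vehicle and -0.091 for D+Q over young.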

How the data were processed

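Messenger RNA of 12 quadriceps libraries was sequenced with a stranded kit, per the labels' protocols. The deposited tables hold raw counts of reads per gene, as whole numbers, and RPKM values of the same genes. The RPKM table gave the biotype and length of each gene, and its values differed from the counts by a fixed scale per library. STAR 2.6.1c, Subread, featureCounts 1.5.1 and mm10 are named in the submitters' processing notes, while the annotation release, strand setting and handling of reads with several positions were not stated.

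Counts were tested with edgeR 4.0.16 (R 4.3.3): filterByExpr (minimum count 10, total 15), TMM scaling, 1 quasi-likelihood fit of the 3 groups, and Benjamini-Hochberg adjustment over 16146 genes at 0.05. Standard errors are the log2 fold change over the root of F, and 95% intervals are 1.96 of them, which is approximate. These intervals are somewhat too narrow. For H2-Aa in D+Q against young the interval ran from 0.045 to 0.91, while the edgeR p was 0.0501. The procedure was tested on simulated data. Alternatives were DESeq2 1.42.0, limma-voom 3.58.1, RLE or no scaling, no filter, only the groups compared, leaving out each library, a replicate block and an adjusted p under 0.1, 21 fits in all. Relations used 100000 permutations of log2 CPM (prior count 2). Within each group no library was a copy of another, and pairs from different groups were not put through this check. Depth (26715140 to 49792488 reads) limits the genes under the filter, and floors cover counting error only.

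The members and lists were chosen with earlier results of these data known. Values in every library are given for a fixed set of 12 genes, every member called and the 3 with the smallest p in each comparison. Of each list, called genes and Irf1 are named, and 1 further result is not reported here.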

Additional observations from a re-analysis of the deposited data

Results flagged for a closer look

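Of 102 groups of 4 libraries checked for a library far from the other 3, 4 were flagged, where chance flags about 1 in 20. Old vehicle replicate 1 stood above its group for H2-Aa (31.04 CPM) and H2-Eb1 (21.4 CPM), chains that move together, and it also had the highest summed B cell markers, 3.53 CPM, and macrophage markers, 201 CPM, of the 12 libraries. Their part was not tested. Young replicate 4 stood below its group for the log2 ratio of Psmb8 to Psmb5 (-5.79) and of Psmb9 to Psmb6 (-7.63).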

How the results depend on the processing

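The number of members called between old vehicle and young was 1, and it was 3 with DESeq2, 0 with no filter, no scaling factors, only the groups compared, the replicate block or without young replicates 3 and 4 (chosen after seeing the data), and 0 to 3 over the fits without 1 library. The adjusted p of H2-M9 there ran from 0.00635 to 0.169. Between D+Q and young the number was 0, and it was 1 with DESeq2 and at 0.1, and 0 to 3 over the fits without 1 library. Between D+Q and old vehicle it was 0 in every fit. Same-numbered libraries did not deviate together in a uniform way (correlations from -0.40 to 0.41). Differently numbered libraries were not set beside them, so this check cannot settle whether the numbers pair the samples. With the replicate block 141 of all genes were called between old vehicle and young, in place of 300, and 35 between D+Q and young, in place of 144.

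Without young replicates 3 and 4 the fold changes turned negative, first over young in old vehicle and then in D+Q where 2 values are given, for H2-K1 (-0.18 and -0.066), H2-D1 (-0.18 and -0.11), Psmb8 (-0.20 and -0.17), Psmb9 (-0.091 and -0.071) and B2m (-0.12). The cause was not tested. Between D+Q and old vehicle signs turned with no scaling for H2-D1 (-0.0045), Tap1 (-0.012), Psmb8 (-0.036) and Psmb9 (-0.053), with limma-voom for Tap1 (-0.017), Psmb8 (-0.021) and Psmb9 (-0.051), and with the replicate block for Psmb8 (-0.023) and Psmb9 (-0.069).

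Over the fits without 1 library, the fold change of D+Q over old vehicle changed sign for B2m (-0.22 to 0.035), Cd74 (-0.28 to 0.10), Cxcl10 (-0.62 to 0.16), H2-Ab1 (-0.28 to 0.065), H2-D1 (-0.14 to 0.21), H2-Eb1 (-0.34 to 0.0032), H2-K1 (-0.072 to 0.24), H2-M9 (-0.22 to 0.17), H2-T22 (-0.068 to 0.048), Nlrc5 (-0.015 to 0.29), Psmb8 (-0.15 to 0.21), Psmb9 (-0.22 to 0.20) and Tap1 (-0.19 to 0.27). That over young did so for B2m (old vehicle -0.079 to 0.16, D+Q -0.15 to 0.029), H2-DMb1 (old vehicle -0.41 to 0.13) and H2-Ob (old vehicle -0.31 to 0.37). Log2 ratios did so between D+Q and old vehicle for Psmb10 to Psmb7 (-0.18 to 0.46), Psmb8 to Psmb5 (-0.14 to 0.27) and Psmb9 to Psmb6 (-0.18 to 0.082), and over young for Psmb9 to Psmb6 (old vehicle -0.33 to 0.33, D+Q -0.39 to 0.27). With 3 against 4 libraries the smallest exact p is 0.0571.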

Other observations

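The 9 H2- symbols of other biotypes were left out of the members. H2-K2, H2-Q5, H2-T10 and H2-M6-ps were tested and none was called. Summed over 4 libraries, H2-Q5 had 244 reads (young), 389 (old vehicle) and 443 (D+Q), and H2-T10 had 244, 343 and 365 in the same order. H2-Bl was under the filter, with 39 (young), 35 (old vehicle) and 5 reads (D+Q), and it varied from 0 to 22 reads within young. H2-Pb, H2-Pa, H2-Ea-ps and H2-Q3 had 0 reads in every library.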
